A study of Mus musculus with 12 samples.

Results

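The response of mouse colon epithelium to IL-22 given alone was read in 6 of the 12 libraries of the series, 3 from colonoids that received IL-22 and 3 from unstimulated colonoids. The members were taken by the library labels, and all genes of the count table entered. Colonoids are epithelial structures that grow from isolated colonic crypts in a basement membrane gel. Here the crypts came from C57BL/6 mice, and every group, the unstimulated one included, was kept in medium with EGF and L-WRN conditioned medium, a source of Wnt, R-spondin and noggin. The IL-22 group received recombinant mouse IL-22 at 1 ng/mL for 12 h, and the unstimulated group received no cytokine. The other 6 libraries, 3 with IL-1b at 100 ng/mL and 3 with both cytokines, shared the estimate of spread and gave a separate reading of IL-22 in the presence of IL-1b. The labels give no time for the unstimulated group, and neither the age nor the number of the mice. Nor do they say whether replicates were separate cultures, so the p-values reflect only how far these libraries spread, and that spread may be technical.

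IL-22 is made mainly by innate lymphoid cells and T cells and acts on epithelium, which carries its receptor. The receptor pairs IL22RA1 with IL10RB, signals through the kinases JAK1 and TYK2 and activates STAT3, and SOCS3 feeds back on it. In the gut IL-22 is known for inducing antimicrobial lectins, glycan fucosylation and epithelial repair, and in secretory cells for bearing on the folding load of the endoplasmic reticulum (ER).

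The 6 libraries held 4728048 to 5559622 counts. Levels below are CPM, that is counts relative to the library total scaled by TMM, with the SD of 3 libraries. Fold changes are log2 values with an approximate standard error, and a gene is said to rise or fall where its p by the edgeR quasi-likelihood test, adjusted over all tested genes by the method of Benjamini and Hochberg, was under 0.05. Within each group libraries differed beyond counting error, with a chi-square per degree of freedom of 2.20 to 3.75. Of 11 colon epithelium markers none changed by edgeR, and their summed level was 3507 to 3668 CPM without and 3592 to 4026 CPM with IL-22; DESeq2 called 1 of them higher, and edgeR called 6 without IL-22 replicate 3 and 2 without unstimulated replicate 3. Markers of other cells were scarce but not all absent. Col3a1, Lum, Des, Cdh5, Adgre1, Tyrobp and Sox10 had no count, whereas Pdgfrb held 972 counts over the 6 libraries, Cd68 221 and Pecam1 118. The fibroblast and smooth muscle list summed to 47.2 to 63.5 CPM in unstimulated and 34.9 to 43.9 CPM in IL-22 libraries, the endothelial list to 8.34 to 10.9 and 2.88 to 3.21 CPM, the leukocyte list to 7.21 to 8.73 and 12.8 to 25.3 CPM, and the neural and glial list to 3.09 to 3.60 and 2.06 to 2.88 CPM. Of these lists Pdgfrb (-0.89 ± 0.17) and Pecam1 (-2.29 ± 0.44) fell and Cd68 (1.76 ± 0.27) rose. The other tested gene changed by -0.03 in the fibroblast and smooth muscle list and by -0.74 in the endothelial list. Neither was called, nor were the other 4 tested leukocyte genes. The part of these markers in the results below was not tested.

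Short promoter stretches are shown for genes of the groups that moved together, with the letters of a known response element in capitals. Each lies within 250 bases before the first RefSeq start listed for the gene (GRCm38.p6), reads 5′ to 3′ on the strand of the gene, and was picked because it held a match on either strand. GENCODE M21 places the starts of Socs3, Reg3b and Hspa5 further upstream, so their stretches lie inside those gene models. The Asns stretch lies partly inside its model. The first 4 hold TTCNNNGAA, the core bound by STAT proteins.
Socs3, chr11:117969482-117969550, minus strand: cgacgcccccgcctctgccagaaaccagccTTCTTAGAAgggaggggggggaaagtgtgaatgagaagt
Trim15, chr17:36867398-36867460, minus strand: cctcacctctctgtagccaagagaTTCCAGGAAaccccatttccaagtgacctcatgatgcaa
Icam1, chr9:21015868-21015936, plus strand: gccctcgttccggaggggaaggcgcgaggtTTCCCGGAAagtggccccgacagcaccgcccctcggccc
Reg3b, chr6:78370726-78370794, plus strand: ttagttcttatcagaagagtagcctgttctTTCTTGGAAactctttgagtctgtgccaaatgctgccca
The next 3 hold the ER stress response element read by NF-Y and ATF6, searched as CCAAT, 9 bases of any kind and CCACG, with Creld2 in the reverse orientation.
Hspa5, chr2:34771995-34772073, plus strand: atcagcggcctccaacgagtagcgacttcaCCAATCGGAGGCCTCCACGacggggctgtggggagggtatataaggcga
Pdia6, chr12:17266461-17266539, plus strand: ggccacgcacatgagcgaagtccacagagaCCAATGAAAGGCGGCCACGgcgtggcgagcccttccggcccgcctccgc
Creld2, chr15:88819490-88819568, plus strand: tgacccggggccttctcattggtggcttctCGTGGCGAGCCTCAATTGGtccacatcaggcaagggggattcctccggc
The next 3 hold TGATGNAA, the core of the element read by ATF4 dimers, with Chac1 in the reverse orientation, and Hmgcs1 holds TCACNCCAC, a sterol response element bound by SREBP.
Asns, chr6:7693210-7693262, minus strand: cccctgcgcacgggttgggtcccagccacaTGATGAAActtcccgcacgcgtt
Chac1, chr2:119351019-119351086, plus strand: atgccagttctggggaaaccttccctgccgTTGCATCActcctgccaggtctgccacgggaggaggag
Slc7a11, chr3:50443642-50443709, minus strand: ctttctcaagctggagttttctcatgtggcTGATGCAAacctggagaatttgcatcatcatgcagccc
Hmgcs1, chr13:119690184-119690252, plus strand: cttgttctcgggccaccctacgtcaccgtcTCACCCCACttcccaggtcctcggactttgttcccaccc
No printed match overlapped another of these motifs; the Trim15 stretch also holds TGATGNAA in lower case, and the Slc7a11 window holds a second TGATGNAA match. TTCNNNGAA was in 7.18% of all 27025 promoters of the table and in 6.07% of the 10340 of tested genes. It was in 6.94% of 1254 genes that rose, in 5.08% of 1122 that fell with IL-22 and in 1 of the 22 matched genes of the receptor and JAK-STAT list. The ER stress response element was in 0.122% of all promoters, in 0.174% of tested genes, in 7 of the 24 matched ER chaperone and folding genes, in 0.638% of genes that rose and in 0.0891% of genes that fell. TGATGNAA was in 3.53% of all promoters, in 2.12% of tested genes and in 7 of the 30 matched ATF4 and amino acid response genes. It was in 3.19% of genes that rose and in 1.52% of genes that fell. TCACNCCAC was in 1.04% of all promoters, in 0.967% of tested genes and in 1 of 19 matched cholesterol genes. It was in 1.12% of genes that rose and in 1.16% of genes that fell. These are matches of letters, not measured sites.

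IL-22 changed 3144 of 13987 genes tested (22.5%), 1661 higher (11.9%) and 1483 lower (10.6%). By at least 2-fold 251 rose and 332 fell, and by at least 4-fold 77 rose and 43 fell. The median log2 fold change was -0.00036 over all genes tested, and the median size was 0.46 among the genes called. The first principal component of the 6 libraries held 59.5% of the variance. The groups did not overlap in 2997 of the 3144 genes called and in 4858 of all genes tested. The rule that named many genes below also asked for groups without overlap. Remarks on overlap of single genes are therefore a description and add no support to a call. Scaling by total counts alone moved the median of all genes to -0.056 and gave 1206 higher and 1991 lower, or 37.7% of calls higher against 52.8%. Fold changes also followed abundance per base of exon: the median was -0.18 in 3196 genes under 0.02 counts per base and 0.13 in 445 genes at 0.4 or more, and 1297 rose and 1211 fell once that trend was removed. Il10rb, Stat3, Bcl3, Cish, Il4ra, Tifa, Card14, Sun2, Adck3, Pdia6, Dnajb9, Ddit3, Sec61a1, Hmgcs1, Sult1a1, Ahr, Cftr, Slc51b, Duoxa2, Cd55, Icam1, Thbs1, Cry2, Tef, Arntl and Cyp51 share exon bases with another gene model, and reads there may have been counted to either.

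**Figure D1:**
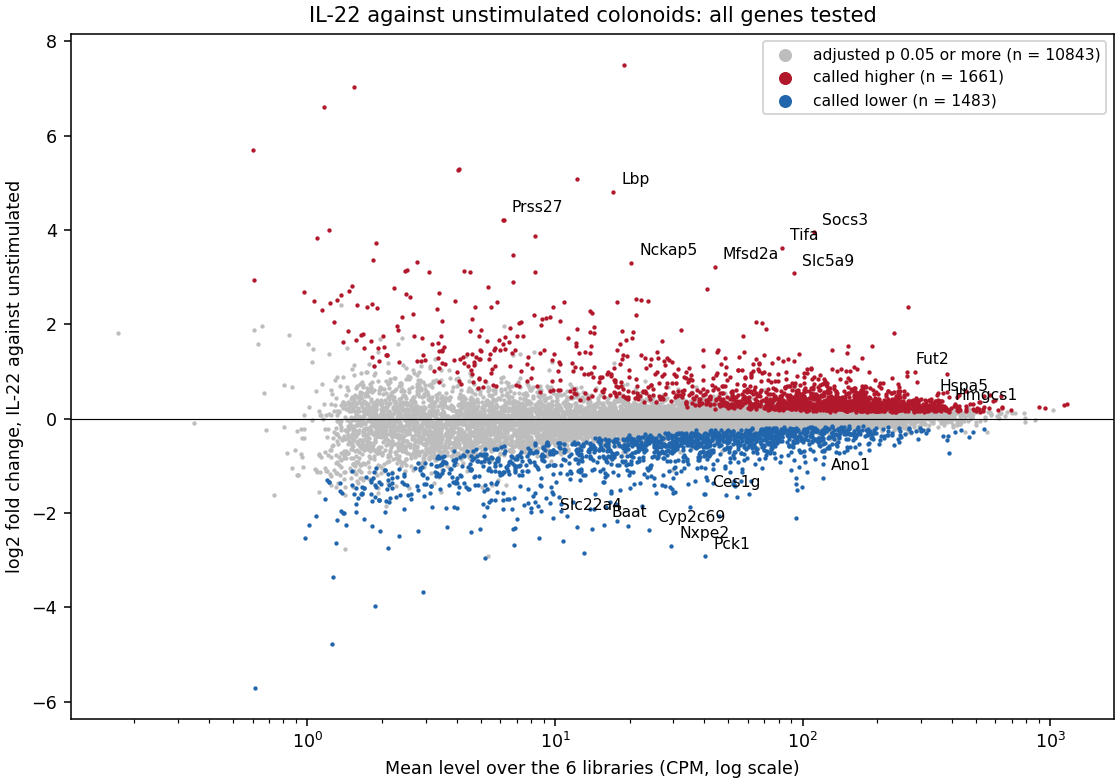
Mean level over the 6 libraries (CPM, log axis) against the log2 fold change of IL-22 over unstimulated for each of 13987 genes tested, with 1661 called higher in red, 1483 called lower in blue and the rest in grey. Socs3, Tifa and Slc5a9 lie above 3 at levels where most genes lie near 0, and Pck1 and Nxpe2 lie below -2.

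Calls shrank when any 1 of 5 libraries was left out. Without unstimulated replicate 1, which holds Reg3 counts close to those of the IL-22 libraries, 2458 genes were called, and 2284 of the 3144 calls (72.6%) kept their direction and their call. The count was 1992 without unstimulated replicate 2, 2912 without replicate 3, 2516 without IL-22 replicate 1, 2138 without replicate 2 and 3350 without replicate 3. Whichever of the 6 libraries was left out, 1693 genes (53.8% of all calls) were called, 986 higher and 707 lower. No called gene reversed without unstimulated replicate 1, and 12 moved by over 1.5-fold.

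The Reg3 genes encode antimicrobial C-type lectins of the gut. Reg3b had 109, 1 and 0 counts in the unstimulated libraries and 177, 135 and 249 with IL-22. Reg3g had 42, 0 and 0 counts without IL-22 and 58, 37 and 51 with it. Unstimulated replicate 1 thus stood close to the IL-22 libraries for both genes, whereas the other unstimulated libraries held at most 1 count. Summed counts of Reg3b, relative to library totals, were 5.70 times as high with IL-22 (95% counting interval 4.64 to 7.06), and 412 times as high (73.7 to 16310) without that library. For Reg3g the ratio was 3.89 (2.74 to 5.62), and at least 35.8-fold higher without that library, taking 3 counts in the group as the floor. Intervals and floors here cover counting error only. With all libraries Reg3b passed the edgeR test (2.51 ± 0.67, adjusted p = 0.016) and Reg3g did not (1.95 ± 0.74, adjusted p = 0.072). Reg3b lost its call by DESeq2 (adjusted p = 0.264), with the 6 libraries alone (0.0570) and without unstimulated replicate 2 (1.93, 0.0511), and both genes were called without replicate 1. That library was singled out for its Reg3 counts, so the calls without it follow in part from its removal and are given as a description. With all libraries and no filter beyond 1 count Reg3g was also called (1.97, edgeR adjusted p = 0.000257). Reg3a had 3 counts in unstimulated replicate 1, 0 in the other unstimulated libraries and at most 1 with IL-22, while the related lectin gene Reg4 had 500, 491 and 388 counts against 476, 388 and 320. Socs3, at 19.1 CPM in that library, was the highest of its group but far below the 198, 219 and 211 CPM of the IL-22 libraries. Dnm1, which encodes a dynamin and was picked after its values were seen, also stood high there, with 9.98, 1.82 and 0.948 CPM in the unstimulated and 8.47, 5.98 and 9.05 CPM in the IL-22 libraries.

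**Figure D2:**
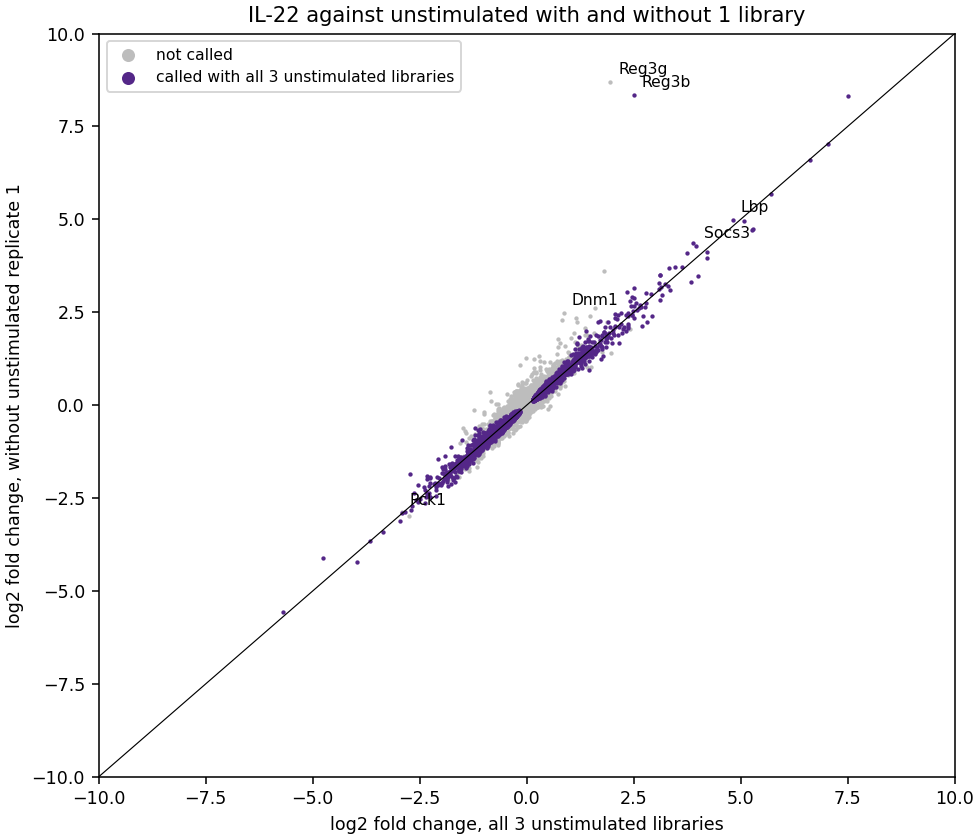
Log2 fold change of IL-22 over unstimulated for each gene with all 3 unstimulated libraries (horizontal) and without replicate 1 (vertical), with called genes in purple and the diagonal drawn. Reg3b and Reg3g lie far above the diagonal at fitted values that depend on the prior count, and most other genes lie along it.

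The receptor chain genes did not pass the test, whereas Stat3 and the feedback gene Socs3 rose. Il22ra1 stood at 140.1, 139 and 149 CPM without and 126, 146 and 145 CPM with IL-22 (-0.04 ± 0.07), and Il10rb changed by -0.05 ± 0.06. The groups overlapped for both. Stat3 stood at 185, 174 and 170.1 CPM and 253, 266 and 275 CPM (0.59 ± 0.07, edgeR adjusted p = 3.00e-05). Socs3 (mm10 chromosome 11, 117966079 to 117970047) stood at 19.1, 13.8 and 7.40 CPM and 198, 219 and 211 CPM (3.95 ± 0.16, edgeR adjusted p = 1.84e-09). All IL-22 libraries lay far above the highest unstimulated one. Of 29 tested genes of the receptor and JAK-STAT list 8 rose (27.6%) and 2 fell (6.90%), with a median of 0.02. Over all genes tested 11.9% rose and 10.6% fell. In this list 1 fell without IL-22 replicate 1 or any 1 of the unstimulated libraries. Pim3, a kinase gene and STAT target, went from 49.5, 44.6 and 43.8 CPM to 104, 105 and 104 CPM (1.18 ± 0.06), and Bcl3, a nuclear partner of NF-kB, rose by 0.69 ± 0.07. Cish, another SOCS family gene, fell (-0.59 ± 0.11).

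Receptors for other cytokines moved both ways, with 8 of 26 tested higher (30.8%) and 5 lower (19.2%), against 11.9% and 10.6% of all genes tested. The median was -0.02. Il4ra and Il13ra1, which encode chains of the receptor for IL-4 and IL-13, rose by 1.23 ± 0.07 and 0.73 ± 0.07. Osmr, the oncostatin M receptor gene, went from 0.535, 0.364 and 1.14 CPM to 31.8, 27.9 and 11.5 CPM (5.09 ± 0.51), and the TNF receptor gene Tnfrsf1b rose by 0.78 ± 0.07. Each of these 4 was higher in every IL-22 library than in any unstimulated one. The 5 genes that fell were 3 without unstimulated replicate 1 or any IL-22 library and 1 without unstimulated replicate 2. Il1r1, the IL-1 receptor gene, did not pass the test (-0.66 ± 0.32), though it did without IL-22 replicate 1 (-1.24, adjusted p = 0.008).

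Other large rises were in an innate sensor adaptor, lipid and sugar carriers and secreted or surface proteins of host defence. Lbp, which presents lipopolysaccharide to its receptor, stood at 1.43, 1.09 and 0.948 CPM without and 32.8, 34.8 and 32.1 CPM with IL-22 (4.81 ± 0.23). Ltf, which encodes the iron-binding lactoferrin, stood at 0.535, 0.546 and 0.759 CPM and 8.88, 13.7 and 12.4 CPM (4.20 ± 0.43), and Retnlb, a bactericidal goblet cell protein, at 1.43, 1.64 and 0.190 CPM and 21.3, 10.6 and 5.47 CPM (3.47 ± 0.59). Cxcl5, a neutrophil-attracting chemokine, rose from 8.73, 4.001 and 8.72 CPM to 45.01, 31.7 and 44.7 CPM (2.50 ± 0.39). The secreted glycoprotein gene Lrg1 had 2, 0 and 1 counts without and 207, 203 and 136 with IL-22, and Pla2g2a, a secreted phospholipase gene annotated as a polymorphic pseudogene, had 0, 1 and 2 against 28, 45 and 43. The groups did not overlap for any of the genes named so far in this paragraph. Tifa, an adaptor that links sensing of bacterial heptose metabolites to NF-kB (mm10 chromosome 3, 127789805 to 127832164), stood at 13.9, 10.5 and 12.7 CPM in unstimulated and 167, 136 and 155 CPM in IL-22 libraries. Its log2 fold change was 3.62 ± 0.11 with the smallest edgeR adjusted p of the table (1.11e-10). The groups were far apart and each was tight. Mfsd2a, a carrier of lysophosphatidylcholine with long polyunsaturated fatty acids (mm10 chromosome 4, 122946850 to 122961188), stood at 9.09, 7.27 and 9.29 CPM and 79.7, 74.6 and 84.9 CPM (3.22 ± 0.11). Slc5a9, a sodium-coupled mannose and glucose carrier (mm10 chromosome 4, 111875375 to 111902918), stood at 24.2, 21.6 and 12.3 CPM and 165, 138 and 192 CPM (3.08 ± 0.17). Nckap5 rose from 3.73 ± 0.488 to 36.9 ± 3.46 CPM (3.30 ± 0.17). None of these groups overlapped. Card14, an NF-kB scaffold of surface epithelia, rose by 1.45 ± 0.06, the TRIM ubiquitin ligase gene Trim15 by 1.53 ± 0.08, and Clca4b, of the chloride channel accessory family, by 2.37 ± 0.12. Appl1, an endosomal adaptor, rose from 196, 186 and 186 CPM to 382, 384 and 368 CPM (0.999 ± 0.05). Cd38, an enzyme that consumes NAD, rose from 185 ± 2.53 to 345 ± 21.3 CPM. Appl1 and Cd38 changed less than the carriers, but their replicates were close, and the edgeR adjusted p was 1.57e-08 for Appl1 and 4.90e-08 for Cd38. Pla2g5, a secreted phospholipase gene, rose by 2.75 ± 0.21, and the membrane-anchored protease gene Prss27 went from 0.356, 0.546 and 0.948 CPM to 14.04, 10.2 and 11.1 CPM (4.22 ± 0.38). Of 22 serine protease and inhibitor genes 9 rose (40.9%) and 1 fell (4.55%), against 11.9% and 10.6% of all genes tested. Their median was 0.16.

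Strong falls were seen in genes of a gluconeogenic enzyme, ion channels and carriers. Pck1, which commits carbon to gluconeogenesis, stood at 72.7, 77.7 and 64.3 CPM and fell to 6.81, 8.20 and 13.01 CPM (-2.92 ± 0.21). Nxpe2 went from 42.8, 55.7 and 55.00 CPM to 9.08, 7.75 and 6.79 CPM (-2.70 ± 0.21). Kcnf1, a modifying subunit of voltage-gated potassium channels (mm10 chromosome 12, 17172100 to 17176888), went from 72.2, 76.2 and 75.1 CPM to 14.04, 20.8 and 18.3 CPM (-2.07 ± 0.19). The highest IL-22 library lay below the lowest unstimulated library for all 3. Ano1, a calcium-activated chloride channel, fell from 170.5 ± 6.70 to 71.1 ± 9.10 CPM (-1.26 ± 0.09). Tsku, a secreted leucine-rich proteoglycan, fell by 1.60 ± 0.13 and Sfxn3, a mitochondrial carrier, fell by 1.30 ± 0.10 on the log2 scale. Sun2, which anchors the nucleus to the cytoskeleton, fell by 2.11 ± 0.17 and the coenzyme Q kinase gene Adck3 fell by 2.34 ± 0.15. In bulk RNA of this kind, fewer cells of a type and less RNA per cell cannot be told apart.

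**Figure D3:**
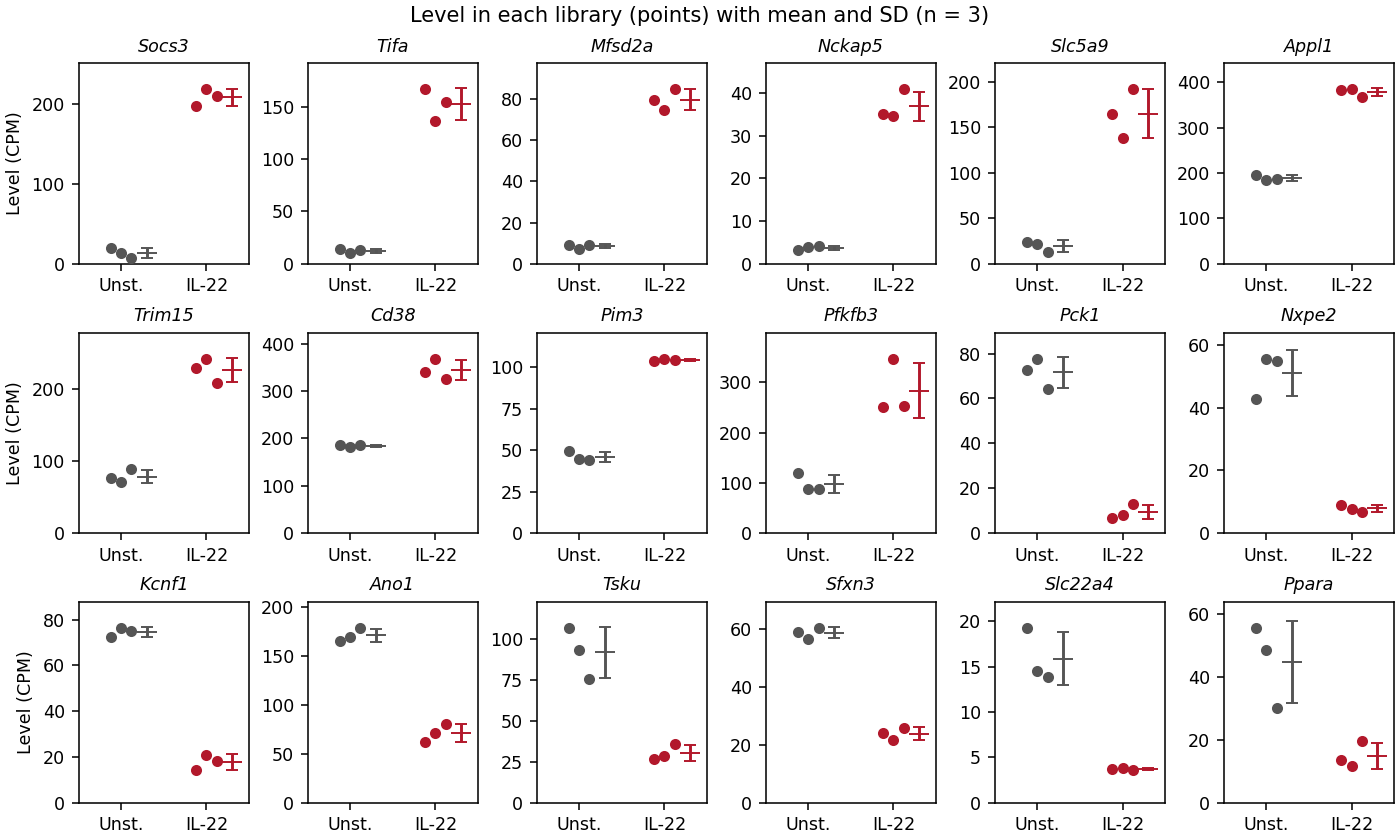
Level of 18 genes (CPM, linear axes from 0) in each unstimulated (grey) and IL-22 (red) library, with the mean and SD of 3 libraries beside the points. Points of the 2 groups do not overlap in any panel: 10 genes are higher with IL-22 and 8 are lower. Most of these genes were named by a rule that asked for groups without overlap.

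Many genes of the secretory pathway rose by modest amounts. Among all genes tested 11.9% rose and 10.6% fell. Of 31 ER chaperone and folding genes 21 rose (67.7%) and none fell, with a median of 0.26 against -0.00036 over all genes tested. With the trend on abundance removed 16 rose and the median was 0.20, and 17 rose with total counts. Hspa5, the main ER chaperone (BiP), stood at 266, 271 and 312 CPM and rose to 382, 397 and 358 CPM (0.42 ± 0.06). Creld2 stood at 55.9, 56.01 and 59.7 CPM and 83.2, 82.6 and 87.9 CPM (0.56 ± 0.07), and Pdia6, a disulfide isomerase, at 122, 121 and 132 CPM and 198, 182 and 167 CPM (0.54 ± 0.07). These 3 carry the ER stress element printed above, and their groups did not overlap. The oxidase gene Ero1l (0.46 ± 0.10) and the chaperone gene Hyou1 (0.57 ± 0.07) rose too, as did Xbp1, the transcription factor of the unfolded protein response (0.62 ± 0.05). Dnajb9, a co-chaperone gene (0.10 ± 0.10), and Ddit3, which encodes CHOP (0.20 ± 0.10), did not pass the test. Of 25 genes of the translocon and of signal peptide processing 12 rose and none fell (median 0.19), such as Sec61a1, the channel subunit (0.39 ± 0.05), and Ssr3 (0.34 ± 0.05); 6 rose with the trend on abundance removed. Of 36 N-glycan assembly and transfer genes 14 rose and 1 fell, or 2 fell without IL-22 or unstimulated replicate 3, and 10 rose with the trend removed or with total counts. Dpagt1, which starts the lipid-linked glycan, rose by 0.53 ± 0.06 and the transferase subunit gene Ostc by 0.35 ± 0.07, and the phosphomannomutase gene Pmm1 fell by 0.67 ± 0.08. Of 45 COPII and COPI vesicle genes 14 rose (31.1%) and 1 fell (2.22%). The coat genes Sec24d (0.48 ± 0.09) and Sec23b (0.35 ± 0.06) were among those that rose. The number that rose was 8 without unstimulated replicate 2 or with the trend removed, and 9 with total counts. With 1 library left out 0 or 1 fell. Of 24 genes of degradation from the ER 3 rose (12.5%, against 11.9% of all genes tested) and none fell, with 1 higher without unstimulated replicate 1 or with total counts.

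Most genes of amino acid supply rose as well. Of 35 genes of the ATF4 and amino acid response 22 rose (62.9%) and 2 fell (5.71%), against 11.9% and 10.6% of all genes tested. The median was 0.41, and 0 to 2 fell with 1 library left out. Chac1, which degrades glutathione, stood at 35.99, 40.6 and 31.9 CPM and 67.3, 74.9 and 78.3 CPM (1.02 ± 0.10). Asns, the asparagine synthetase gene, stood at 123, 123 and 135 CPM and 186, 202 and 183 CPM (0.58 ± 0.06), and Slc7a11, the cystine carrier, at 57.2, 45.6 and 46.1 CPM and 79.3, 77.97 and 79.02 CPM (0.66 ± 0.12). Every IL-22 library was above every unstimulated one for these 3. The large neutral amino acid carrier Slc7a5 (0.81 ± 0.11), Psat1 of serine synthesis (0.70 ± 0.10) and Mthfd2 of mitochondrial folate metabolism (0.70 ± 0.06) rose. Trib3, a pseudokinase target of ATF4 and CHOP, did not pass the test (0.45 ± 0.25), though it did in a fit of the 6 libraries alone (edgeR adjusted p = 0.0321). Of 20 aminoacyl-tRNA synthetase genes 14 rose and none fell (median 0.25), led by Rars (0.47 ± 0.06) and with Tars at 0.33 ± 0.05; the count was 9 without unstimulated replicate 1 or with total counts, and 8 with the trend removed.

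Most genes of cholesterol synthesis and uptake rose, with 18 of 27 genes higher (66.7%, against 11.9% of all genes tested). None was lower, and the median was 0.33. With the trend on abundance removed 15 rose and the median was 0.24, and with total counts 16 rose and 1 fell. Hmgcs1, whose promoter is printed above, stood at 348, 342 and 360.3 CPM and 421, 438 and 376 CPM (0.23 ± 0.05), a call lost with the trend on abundance removed (0.11, adjusted p = 0.167). Insig2, which retains the sterol sensor in the ER, stood at 95.3, 98.4 and 108 CPM and rose to 142, 148 and 133 CPM (0.49 ± 0.06), and the squalene epoxidase gene Sqle rose by 0.33 ± 0.05. The changes were small, under 1.5-fold in each gene named here, and the groups did not overlap. Srebf2, the gene of the factor that drives this pathway, did not pass the test (0.13 ± 0.07). Of 34 fatty acid and lipid synthesis genes 5 rose (14.7%) and 6 fell (17.6%), against 11.9% and 10.6% of all genes tested; without IL-22 replicate 2 these were 3 and 3.

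**Figure D4:**
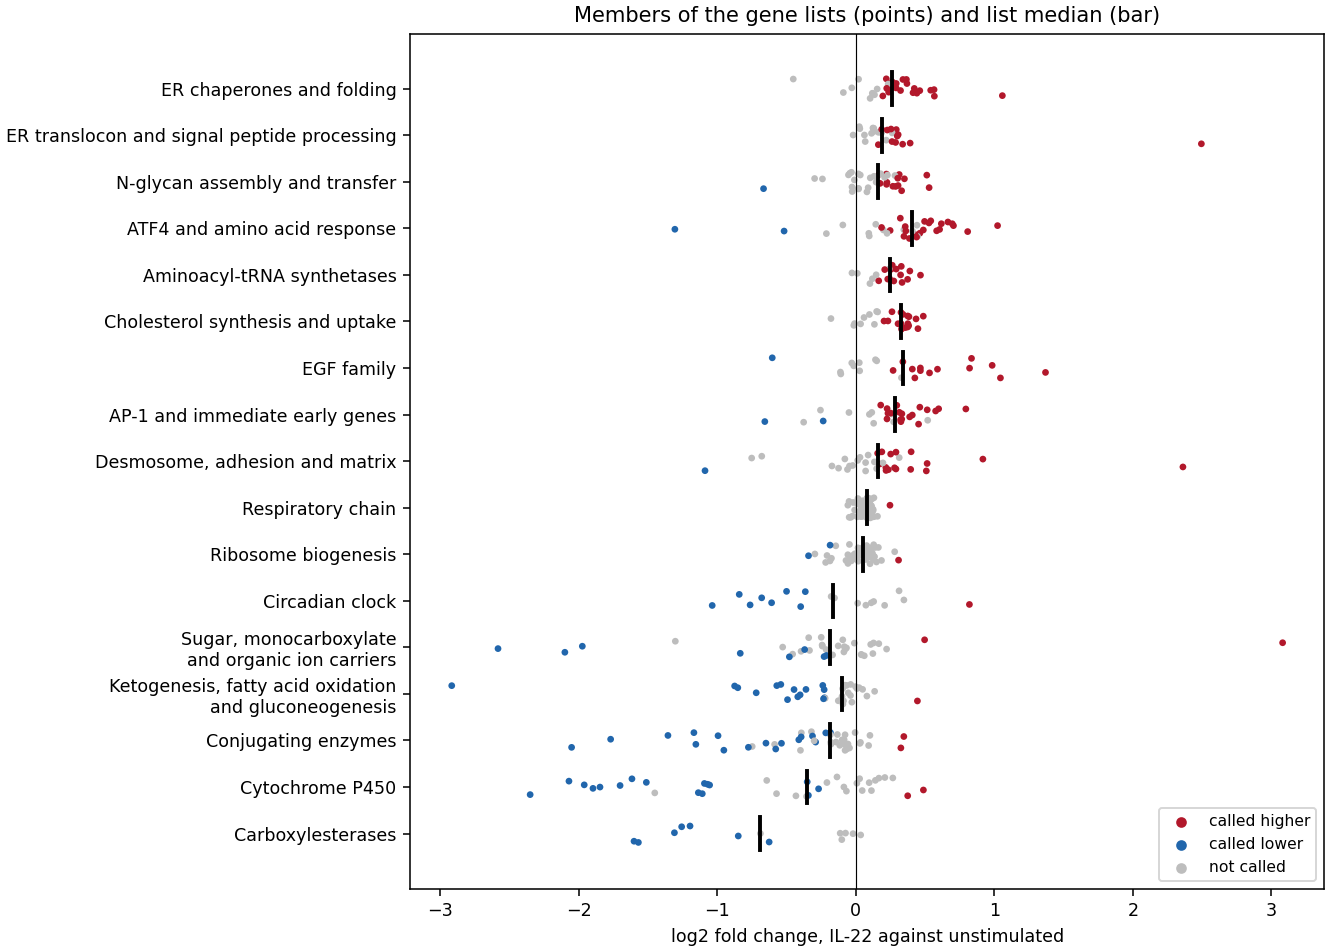
Log2 fold change of IL-22 over unstimulated for the tested members of 17 gene lists, red where called higher, blue where called lower and grey otherwise, with the list median as a black bar. Secretory, amino acid and cholesterol lists sit to the right of 0, respiratory chain and ribosome lists near 0, and P450 and carboxylesterase lists to the left.

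Many enzymes that handle xenobiotics and bile acids fell. Among all genes tested 10.6% fell and 11.9% rose. Of 36 cytochrome P450 genes 16 fell (44.4%) and 2 rose (5.56%), 1 of them the sterol gene Cyp51, with a median of -0.35. Of 13 carboxylesterase genes 7 fell (53.8%) and none rose, with a median of -0.69. Cyp2c69 stood at 33.7, 46.7 and 39.8 CPM and fell to 5.57, 7.97 and 9.81 CPM (-2.35 ± 0.26). Its neighbours on chromosome 19, Cyp2c40 and Cyp2c68, changed by -1.85 ± 0.16 and -1.51 ± 0.13, but these genes are close in sequence and reads may be shared among them. Cyp1a1, a target of the aryl hydrocarbon receptor, went from 5.88, 4.18 and 7.02 CPM to 1.03, 2.44 and 1.13 CPM (-1.90 ± 0.41). The groups did not overlap for any of the 4. Ces2g stood at 52.4, 56.01 and 49.5 CPM and 27.3, 30.8 and 29.6 CPM (-0.85 ± 0.08), and Ces1e at 38.3, 39.1 and 29.02 CPM and 17.1, 14.6 and 12.8 CPM (-1.26 ± 0.15); both belong to families of close copies. Of 45 conjugating enzyme genes 17 fell (37.8%) and 2 rose (4.44%), with a median of -0.18, and 10 fell without unstimulated replicate 1 or 2. The glutathione transferase genes Gstm3 (-0.95 ± 0.09) and Gstm7 (-1.16 ± 0.16), again close copies, and the sulfotransferase gene Sult1a1 (-0.996 ± 0.14) were among these. Baat, which joins bile acids to glycine or taurine, fell from 17.5, 31.6 and 29.2 CPM to 4.13, 5.54 and 6.60 CPM (-2.25 ± 0.25). The export pump gene Abcc2 fell by 1.98 ± 0.27 and the organic cation carrier gene Slc22a4 fell by 2.10 ± 0.23. Ahrr, the repressor of the aryl hydrocarbon receptor, rose from 0.713, 1.09 and 0.948 CPM to 4.75, 3.99 and 2.26 CPM (1.96 ± 0.37), whereas Ahr did not pass the test (-0.30 ± 0.15).

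Fuel metabolism genes moved both ways, where 11.9% of all genes tested rose and 10.6% fell. Of 35 genes of ketogenesis, fatty acid oxidation and gluconeogenesis 15 fell (42.9%) and 1 rose (2.86%), with a median of -0.10. In this list 8 fell without unstimulated replicate 2, and 2 rose without replicate 3. Ppara, the receptor that drives fatty acid oxidation, stood at 55.6, 48.7 and 30.2 CPM and fell to 13.4, 11.7 and 19.6 CPM (-1.58 ± 0.25). Its coactivator gene Ppargc1a went from 127, 118 and 115 CPM to 51.6, 63.1 and 80.7 CPM (-0.88 ± 0.13), and Cpt1a, the gate of mitochondrial import of fatty acids, from 289.7, 296 and 271 CPM to 183, 203 and 223 CPM (-0.49 ± 0.08). No IL-22 library reached the lowest unstimulated one for these 3. The kinase gene Pdk2, which restrains pyruvate dehydrogenase, fell by 0.85 ± 0.11. Of 23 glycolysis genes 10 rose (43.5%) and 1 fell (4.35%), with a median of 0.16. The number that rose was 4 without unstimulated replicate 2, IL-22 replicate 2 or the trend on abundance, and 5 with total counts. Pfkfb3, which makes the activator of phosphofructokinase, stood at 119, 88.02 and 86.9 CPM and rose to 251, 347 and 253 CPM (1.53 ± 0.13), and the hexokinase gene Hk2 rose by 0.49 ± 0.06. Of 76 respiratory chain genes 1 was called, higher, with a median of 0.08, and 0 to 3 with 1 library left out. Of 53 ribosome biogenesis genes 1 rose and 2 fell, and 0 or 1 rose and 0 to 3 fell with 1 library left out. Of 23 genes of apolipoproteins and lipid absorption 8 fell and 1 rose; 0 to 2 rose with 1 library left out, and 3 to 5 fell when unstimulated replicate 1, 2 or 3 or IL-22 replicate 1 or 3 was left out. The fatty acid carrier gene Slc27a1 fell by 1.05 ± 0.15.

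Of 58 ion and water transport genes of the epithelial surface 6 rose (10.3%) and 9 fell (15.5%), against 11.9% and 10.6% of all genes tested. Trpv6, the apical calcium channel, stood at 142, 139 and 198 CPM and fell to 66.7, 113 and 68.6 CPM (-0.96 ± 0.19), and the aquaporin gene Aqp11 fell by 1.21 ± 0.16. The chloride channel gene Cftr (-0.17 ± 0.17), the chloride exchanger gene Slc26a3 (0.15 ± 0.06) and the sodium channel gene Scnn1a (-0.13 ± 0.10) did not pass the test, with overlapping groups, though Slc26a3 did without unstimulated replicate 3 (edgeR adjusted p = 0.0443). Of 36 sugar, monocarboxylate and organic ion carriers 2 rose (5.56%), Slc5a9 and Slc51b (0.50 ± 0.08), and 8 fell (22.2%). Of 29 amino acid and peptide carriers 9 rose (31.0%) and 5 fell (17.2%). In that list 5 rose without unstimulated replicate 3 and 3 fell without replicate 1. The apical neutral amino acid carrier Slc6a19 stood at 75.7, 81.7 and 109 CPM and fell to 20.2, 34.1 and 51.3 CPM (-1.32 ± 0.31). Slc7a9, the apical carrier of cystine and basic amino acids, rose instead, from 48.5, 57.3 and 56.9 CPM to 87.3, 123 and 105 CPM (0.95 ± 0.15).

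The oxidase pair of the epithelial surface rose, as did other redox genes. Duox2 stood at 124, 79.8 and 105 CPM and rose to 344, 407 and 339.8 CPM (1.81 ± 0.13), Duoxa2, whose product matures it, rose by 2.05 ± 0.15, and Duox1 went from 2.32, 1.45 and 1.33 CPM to 6.40, 8.86 and 7.36 CPM (2.12 ± 0.28). Of 37 redox defence genes 9 rose (24.3%) and 3 fell (8.11%), against 11.9% and 10.6% of all genes tested, or 5 fell with total counts. Heme oxygenase Hmox1 (0.79 ± 0.11) and the glutathione peroxidase gene Gpx2 (0.59 ± 0.08) rose, and the quinone reductase gene Nqo1 fell by 0.47 ± 0.10. The complement gene C3 rose from 42.8, 26.6 and 25.98 CPM to 68.5, 92.1 and 76.6 CPM (1.31 ± 0.20), and Cd55, which protects cells from complement, by 0.48 ± 0.12.

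Many growth factor and immediate early genes rose. Of 23 EGF family genes 13 rose (56.5%) and 1 fell (4.35%), against 11.9% and 10.6% of all genes tested. The median was 0.34. The ligand gene Hbegf stood at 61.7, 57.1 and 65.6 CPM and rose to 112, 119 and 98.4 CPM (0.83 ± 0.08), Btc rose by 0.82 ± 0.14 and Areg by 0.47 ± 0.08. The receptor gene Egfr rose from 132, 103 and 150.2 CPM to 215, 206 and 158 CPM (0.59 ± 0.12), and Spry4, a feedback inhibitor of receptor kinases, by 0.98 ± 0.15. Lrig3, of a family that modulates these receptors, was the member that fell (-0.60 ± 0.10). Of 30 AP-1 and immediate early genes 19 rose (63.3%) and 2 fell (6.67%), with a median of 0.28. With 1 library left out 0 to 2 fell. The number that rose was 11 without unstimulated replicate 2, without IL-22 replicate 2 or with the trend removed. Klf10 stood at 92.1, 82.6 and 96.3 CPM and 160.4, 166 and 144 CPM (0.79 ± 0.07), and Ier3 (0.60 ± 0.10), Egr1 (0.52 ± 0.12) and Fos (0.41 ± 0.09) rose. Of 35 desmosome, adhesion and matrix genes 16 rose (45.7%) and 1 fell (2.86%), with a median of 0.16, and 8 rose with the trend removed. The integrin gene Itgb6 rose by 0.92 ± 0.17, the desmosomal plakophilin gene Pkp2 by 0.40 ± 0.06, Cd47 by 0.51 ± 0.06 and the adhesion molecule gene Icam1 from 0.356, 0.364 and 0.948 CPM to 4.13, 1.77 and 2.83 CPM (2.36 ± 0.44), and Thbs1 fell by 1.09 ± 0.21.

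Several clock output and repressor genes fell. Of 18 circadian genes 8 fell (44.4%) and 1 rose (5.56%), against 10.6% and 11.9% of all genes tested. The median was -0.17, with log2 fold changes from -1.04 to 0.82. The number that rose was 0 to 3 with 1 library left out. The labels do not give the time of the unstimulated group. Per2 stood at 99.6, 88.4 and 80.6 CPM and fell to 45.6, 60.03 and 52.8 CPM (-0.76 ± 0.10), and Per3 at 109, 100.0 and 87.2 CPM fell to 54.3, 62.5 and 49.03 CPM (-0.84 ± 0.10). Per1 fell by 0.61 ± 0.13, Cry2 fell by 1.04 ± 0.08 and Tef, a clock output factor, fell by 0.68 ± 0.08. All 3 IL-22 libraries lay below the unstimulated ones for these 5 genes. The activator genes Clock (0.01 ± 0.07) and Arntl (-0.15 ± 0.06) did not pass the test; Arntl did with total counts (edgeR adjusted p = 0.0214).

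Of 62 cell cycle and DNA replication genes 5 rose (8.06%, against 11.9% of all genes tested) and 1 fell, with a median of 0.16. IL-22 replicates differed among themselves here: 16 rose without replicate 3, whereas 2 rose and 6 fell without replicate 1, 3 rose and 2 fell without replicate 2, 2 rose and 0 fell without unstimulated replicate 2, and 0 fell without unstimulated replicate 3. Mki67 stood at 183, 178 and 202 CPM and 298, 212 and 184 CPM (0.30 ± 0.14) and did not pass the test, though it did without IL-22 replicate 3 (0.45, edgeR adjusted p = 0.027) and with no filter beyond 1 count (0.00973). The mucin gene Muc2 (-0.02 ± 0.08) and the stem cell gene Lgr5 (0.28 ± 0.62) did not pass it either. Atoh1, the secretory lineage factor, stood at 33.9, 32.01 and 26.9 CPM and fell to 20.9, 19.3 and 16.97 CPM (-0.70 ± 0.14). Tac1, a neuropeptide gene of enteroendocrine cells, rose from 20.3, 24.7 and 34.3 CPM to 82.4, 93.3 and 89.6 CPM (1.74 ± 0.16). It was 1 of 2 enteroendocrine genes called, both higher, among 26 tested (7.69%, against 11.9% of all genes tested). In that list 1 was called when replicate 1 or 2 of either group was left out, and 4 without IL-22 replicate 3. Ephb3, a Wnt target of the crypt base, rose by 0.97 ± 0.18 and the Wnt receptor gene Fzd1 from 70.9, 67.8 and 72.8 CPM to 135, 152 and 150.1 CPM (1.05 ± 0.08). Of 28 Wnt pathway genes 4 rose (14.3%) and 3 fell (10.7%), with 0 lower without unstimulated replicate 1, 1 without replicate 2 and 5 with total counts. Ascl2 fell, with the largest change of the genes called in this list, a call lost without unstimulated replicate 1. Of 24 Hox genes 1 was called, lower (4.17%, against 10.6% of all genes tested), with 0 without IL-22 replicate 1 and 3 without unstimulated replicate 3.

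Of 34 apoptosis regulators 12 rose (35.3%) and 3 fell (8.82%), against 11.9% and 10.6% of all genes tested. In this list 1 fell without unstimulated replicate 2 or by DESeq2, and 6 with total counts. Apaf1, the scaffold of the apoptosome, stood at 77.2, 73.1 and 74.9 CPM and 118, 134 and 132 CPM (0.77 ± 0.06), Casp4 rose by 0.57 ± 0.11 and Bcl2l11, which encodes BIM, fell by 0.64 ± 0.13. Of 44 interferon-stimulated genes 6 rose (13.6%, against 11.9% of all genes tested) and none fell, with a median of 9.14e-05; 1 fell without IL-22 replicate 1 or 2. Zbp1, a sensor of nucleic acids, stood at 2.14, 2.91 and 5.12 CPM and rose to 16.3, 13.7 and 14.7 CPM (2.14 ± 0.34). Of 22 antigen presentation genes 2 were called, higher (9.09%, against 11.9% of all genes tested). None was higher when IL-22 replicate 2 or either of unstimulated replicates 1 and 2 was left out. Without IL-22 replicate 3 or unstimulated replicate 1 or 3, 1 was lower.

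The effect of IL-22 was then read in the 6 libraries that all carried IL-1b, which are not the ones compared above. Both cytokines against IL-1b alone changed 3682 genes (26.3% of those tested), 1860 higher and 1822 lower. Of the 1661 genes that rose with IL-22 alone 1257 (75.7%) also rose there, which are 67.6% of the genes higher in that comparison, and of the 1483 that fell 1018 (68.6%) also fell, which are 55.9% of those lower. Of the 3144 genes 3099 (98.6%) had the same sign. Pearson's r of the log2 fold changes was 0.80 across all genes tested, given as a description, since genes are not independent replicates. Socs3 changed by 3.95 ± 0.16 without and 4.28 ± 0.16 with IL-1b, Tifa by 3.62 ± 0.11 and 3.74 ± 0.11, Mfsd2a by 3.22 ± 0.11 and 3.04 ± 0.10, Hspa5 by 0.42 ± 0.06 and 0.33 ± 0.06, and Ppara by -1.58 ± 0.25 and -1.32 ± 0.26. Reg3b, read there against IL-1b libraries with 1, 5 and 1 counts, had 265, 277 and 225 counts with both cytokines, and Reg3g had 230, 118 and 142 against 0, 2 and 2. With IL-1b 19 of 31 ER chaperone genes rose (21 without it), 20 of 27 cholesterol genes rose (18), 17 of 36 P450 genes fell (16) and 9 of 18 circadian genes fell (8). Other lists gave counts further apart. Of 44 interferon-stimulated genes 11 fell with IL-1b and none without it, and the medians were -0.22 and 9.14e-05. Of 39 metal handling genes 9 fell with IL-1b and 1 without it, of 32 retinol and alcohol dehydrogenase genes 8 and 3, of 22 antigen presentation genes 4 and 0, of 26 enteroendocrine genes 4 and 0, and of 24 Hox genes 6 and 1. Of 34 fatty acid and lipid synthesis genes 12 rose with IL-1b and 5 without it. Differences between these counts were not tested as such.

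**Figure D5:**
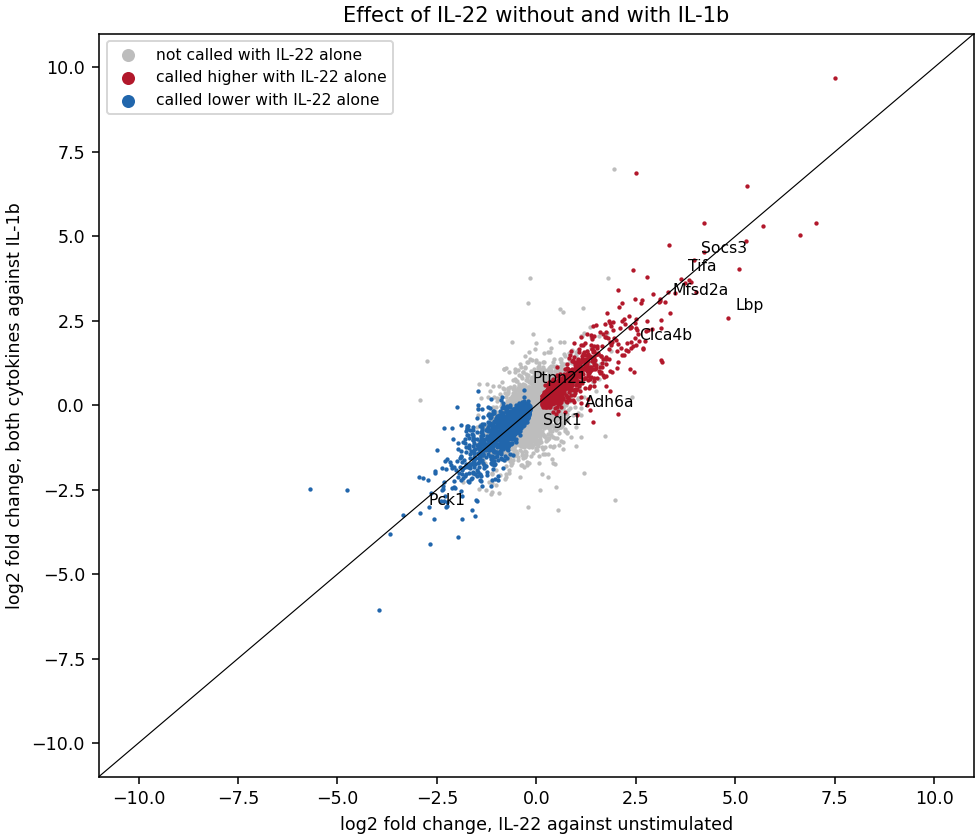
Log2 fold change of IL-22 over unstimulated (horizontal) and of both cytokines over IL-1b alone (vertical) for each of 13987 genes, with the diagonal drawn. Genes called higher (red) and lower (blue) with IL-22 alone lie along the diagonal, and Lbp, Adh6a and Sgk1 lie below it.

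The difference between these effects, the interaction of IL-22 and IL-1b, was called in 0 genes (0% of those tested) by the edgeR quasi-likelihood test. The smallest adjusted p was 0.124, and 705 genes (5.04%) had an unadjusted p under 0.05. DESeq2 called 4: Lbp, the lipopolysaccharide-binding protein gene (4.81 ± 0.23 without and 2.58 ± 0.17 with IL-1b, DESeq2 adjusted p = 0.00138), the alcohol dehydrogenase gene Adh6a (1.02 ± 0.20 and -0.29 ± 0.20, 0.0326), Clca4b (2.37 ± 0.12 and 1.68 ± 0.11, 0.0494) and the kinase gene Sgk1 (-0.04 ± 0.12 and -0.83 ± 0.12, 0.0494). In each the change with IL-22 was lower in the presence of IL-1b. Ptpn21, a phosphatase gene named for this reason after its values were seen, was the 1 gene called in opposite directions, at -0.30 ± 0.10 without and 0.44 ± 0.10 with IL-1b. Its call with IL-22 alone was lost by DESeq2 (adjusted p = 0.125) and when unstimulated replicate 1 or 3 or any 1 of the IL-22 libraries was left out (edgeR adjusted p of 0.0523 to 0.146).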

How the data were processed

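PolyA RNA libraries of mouse colonoids were made with a stranded TruSeq kit, per the labels' protocols. The authors deposited 1 table of raw read counts per gene symbol for all 12 libraries; per the submitters' processing notes, the genome build was mm10. Not given in the sources used here are aligner, counter, strand setting and annotation. The 35869 symbols held 11498 with no count. Genes kept by filterByExpr (13987) were scaled by TMM and fitted with edgeR 4.0.16 in R 4.3.3 (quasi-likelihood test, all 12 libraries, 1 mean per group, 8 residual degrees of freedom), with Benjamini-Hochberg adjustment over all genes tested. The standard error is the log2 fold change divided by the root of F. The 6 libraries held 4728048 to 5559622 counts, so 3 counts in a library were 0.535 to 0.665 CPM. Positions and exon lengths came from GENCODE M21 and promoters from RefSeq. Of these steps, the edgeR test of IL-22 against unstimulated was tried on simulated counts with known changes.

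The members and gene lists were chosen with earlier results of these data known. Genes were named by a rule: in either direction, the 30 calls of largest size (mean of at least 1 CPM, groups not overlapping) and the 15 of smallest p; from every list, the 6 largest calls at most, or its 2 most abundant genes where none was called; up to 10 called in the interaction; and fixed genes of the pathway. Unnamed gene models were passed over. The rule gave 321 tested genes, of which the text names 129; the others, among them genes of unsure role, are not reported here. Outside this rule, Dnm1, Hspa5, Xbp1, Dnajb9, Ddit3, Asns, Trib3, Hmgcs1, Sqle, Srebf2, Ahr, Cpt1a, Cftr, Slc26a3, Scnn1a, Areg, Egfr, Fos, Clock, Arntl, Atoh1, Sgk1, Ptpn21, Cyp51 and Reg4 were chosen after their values were seen. Alternatives were DESeq2 1.42.0, total counts as scaling, no filter beyond 1 count, 1 CPM in 6 libraries, the 6 libraries alone, a replicate block, each library left out, and 2 checks on count per exon base.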

Additional observations from a re-analysis of the deposited data

How the results depend on the processing

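With 1 library left out, IL-22 alone gave 1992 to 3350 calls, 1104 to 1779 higher and 888 to 1571 lower. In genes under 0.1 count per exon base, a smaller set by construction, it gave 1541 calls, 827 higher and 714 lower. The other alternatives gave 2283 to 3351 calls. The interaction gave 4 calls by DESeq2, 50 with no filter beyond 1 count and 0 or 1 with 1 library left out, against 0 by edgeR; the cause was not tested. A replicate block gave 2819 calls for IL-22 alone (1519 higher, 1300 lower), 3345 for both cytokines against IL-1b and 0 for their interaction. Libraries with the same number, taken across the unstimulated and IL-22 groups, did not deviate together (Pearson's r of 0.047, -0.12 and -0.24 across 12045 genes), so the numbers were not taken as pairs; Reg3g passed the test with the block (adjusted p = 0.0382). Of 3001 fold changes of 154 named genes under alternatives, 2961 kept direction and side of the threshold, 17 lost the call (Reg3b, Hmgcs1 and Ptpn21), 11 gained it and 12 turned sign. Those that turned sign were not called: with 1 library left out, Il22ra1 ranged from -0.076 to 0.026, Clock from -0.052 to 0.081, Muc2 from -0.078 to 0.057, Lgr5 from -0.14 to 1.31, Sgk1 from -0.20 to 0.073 and Reg4 from -0.21 to 0.13, and Clock was -0.042 with total counts as scaling. Levels below 3 counts in a library (0.535 to 0.665 CPM) could not be told from 0.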

Other observations

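Over all genes tested 11.9% rose and 10.6% fell. Of 39 metal handling genes 7 rose (17.9%) and 1 fell (2.56%); the number that fell was 0 to 4 with 1 library left out. Steap4, a metalloreductase gene, stood at 191, 204 and 199.9 CPM without and 291, 341 and 259 CPM with IL-22 (0.58 ± 0.09), and the copper ATPase gene Atp7a rose by 0.76 ± 0.08. Of 19 arginine and polyamine genes 4 rose (21.1%) and 1 fell, or 2 fell without unstimulated replicate 3. Nos2, the inducible nitric oxide synthase gene, stood at 41.9, 22.2 and 25.8 CPM and rose to 83.2, 107 and 146 CPM (1.90 ± 0.22), and Smox, the spermine oxidase gene, rose by 0.84 ± 0.10. The groups did not overlap for any of these 4 genes.

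Fut2, which adds terminal fucose to surface glycans, stood at 164, 183 and 184 CPM and rose to 353, 365 and 341 CPM (0.995 ± 0.05). Of 26 nuclear receptor genes and their partners 5 rose (19.2%) and 4 fell (15.4%). The bile acid receptor gene Nr1h4 rose by 0.41 ± 0.06 and Ppard by 0.39 ± 0.06, and the thyroid hormone receptor gene Thrb fell from 62.01, 70.7 and 63.9 CPM to 37.6, 41.2 and 52.6 CPM (-0.58 ± 0.11). Of 42 proteasome genes 7 rose (16.7%) and 1 fell (2.38%); 3 or 4 rose without IL-22 replicate 1 or 2 or unstimulated replicate 1 or 2, and 0 or 1 fell with 1 library left out. Of 40 Notch, BMP and Hedgehog genes 7 rose (17.5%) and 6 fell (15%); 4 rose without unstimulated replicate 2, and 3 fell without IL-22 replicate 2 and 2 without unstimulated replicate 1.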
